A study of Mus musculus with 6 samples.

Results

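The genes that encode the nuclear subunits of the mitochondrial respiratory chain and of ATP synthase were compared between 2 regions of the embryonic mouse lung. Members were all probe sets whose single gene symbol in the platform annotation begins with Nduf, Uqcr, Cox4 to Cox8 or Atp5, is Sdha, Sdhb, Sdhc or Sdhd, or is Cycs or Cyc1. This rule found 101 of the 12488 probe sets on the array, which stand for 73 of the 8251 genes that the annotation names singly: 31 of complex I, 4 of complex II, 8 of complex III with Cyc1, Cycs, 15 of complex IV and 14 of ATP synthase. A probe set is a group of short oligonucleotides designed against 1 transcript, and 37 of the 101 belong to designs whose names mark them as less specific. The rule goes by name, so it also takes in Ndufaf1 and Ndufaf4, which are assembly factors of complex I, and Cox7a2l, which helps to join complexes into supercomplexes. All 73 genes matched a table of mouse RefSeq genes, where they lie on 19 chromosomes and none on the mitochondrial genome. None of the 26 listed symbols of mitochondrially encoded subunits, which include alternative names of the same gene, was named in the annotation of the array. These subunits were therefore not analysed here. A further 10 probe sets whose annotation joins a member to a pseudogene or a copy, among them those of Cox7c, Ndufs5, Ndufs6 and Ndufb4, were not members.

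RNA came from tissue dissected at stage E11.5. The branching region was taken from the right and left lungs together and was measured on 3 arrays. The non-branching region, the main bronchi with a piece of the trachea, was measured on another 3. The labels name no strain, genotype or treatment, and they do not say whether the replicates of a region came from separate embryos or litters, so p-values measure only the spread between these arrays, which may be technical. In bulk tissue, fewer cells of a type and less RNA per cell cannot be told apart.

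Complex I (NADH dehydrogenase) and complex II (succinate dehydrogenase) pass electrons to ubiquinone, complex III passes them on to cytochrome c, and complex IV (cytochrome c oxidase) passes them to oxygen. Complexes I, III and IV pump protons across the inner mitochondrial membrane, and ATP synthase uses the returning protons to make ATP. Most subunits are encoded in the nucleus, many in genes that the factors NRF1, GABP and YY1 are known to bind, and the catalytic cores of complexes I, III and IV are completed by subunits encoded in mitochondrial DNA.

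No gene of the respiratory chain or of ATP synthase passed the test between the regions. Of the 73 genes, 69 were bright enough to be tested, 0 were called at an adjusted p under 0.05 by limma, and 0 of the 85 member probe sets tested were called. Over all 9316 probe sets tested, 189 were called, which is 2.03%, with 84 higher and 105 lower in the branching region. At an unadjusted p under 0.05 the members counted 9 of 69 (13.0%), 3 higher and 6 lower in the branching region, against 14.6% of all probe sets tested. The values of the 2 regions did not overlap for 13 of 69 genes (18.8%), 4 higher and 9 lower in the branching region, against 20.8% of all probe sets tested. These shares were near those of the whole array, so they are no result about the members.

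On the log2 scale, the branching minus non-branching difference was above 0 for 35 of the 69 genes and below 0 for 34. Its median over the 69 genes was 0.02, against -0.0046 over all probe sets tested. These counts include 7 genes near background for which no single difference is given. Among the 60 genes above background on all 6 arrays, 31 differences were above 0 and 29 below, with a median of 0.02. The median size of the difference, without its sign, was 0.20 for the members and 0.27 over all probe sets tested, with median standard errors (SE) of 0.15 and 0.28. The 95% interval of the difference lay within 2-fold in both directions for 57 of the 69 genes (82.6%), against 52.6% of all probe sets tested. Values by gene rest on the brightest probe set of each gene, while those over the array count every probe set, so they are not like for like. Counted by probe set, the 85 tested members had a median size of 0.21, a median SE of 0.17 and 63 intervals within 2-fold (74.1%). Of the 69 genes, 60 lay above the background level of 147 on all 6 arrays, as did 5797 of all 9316 probe sets tested, and for 57 of these 60 (95%) the interval lay within 2-fold, against 82.2% of those 5797 probe sets. The background level is the 95th percentile of probe sets for bacterial and yeast sequences. The plot of differences by complex shows these intervals gene by gene.

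**Figure D1:**
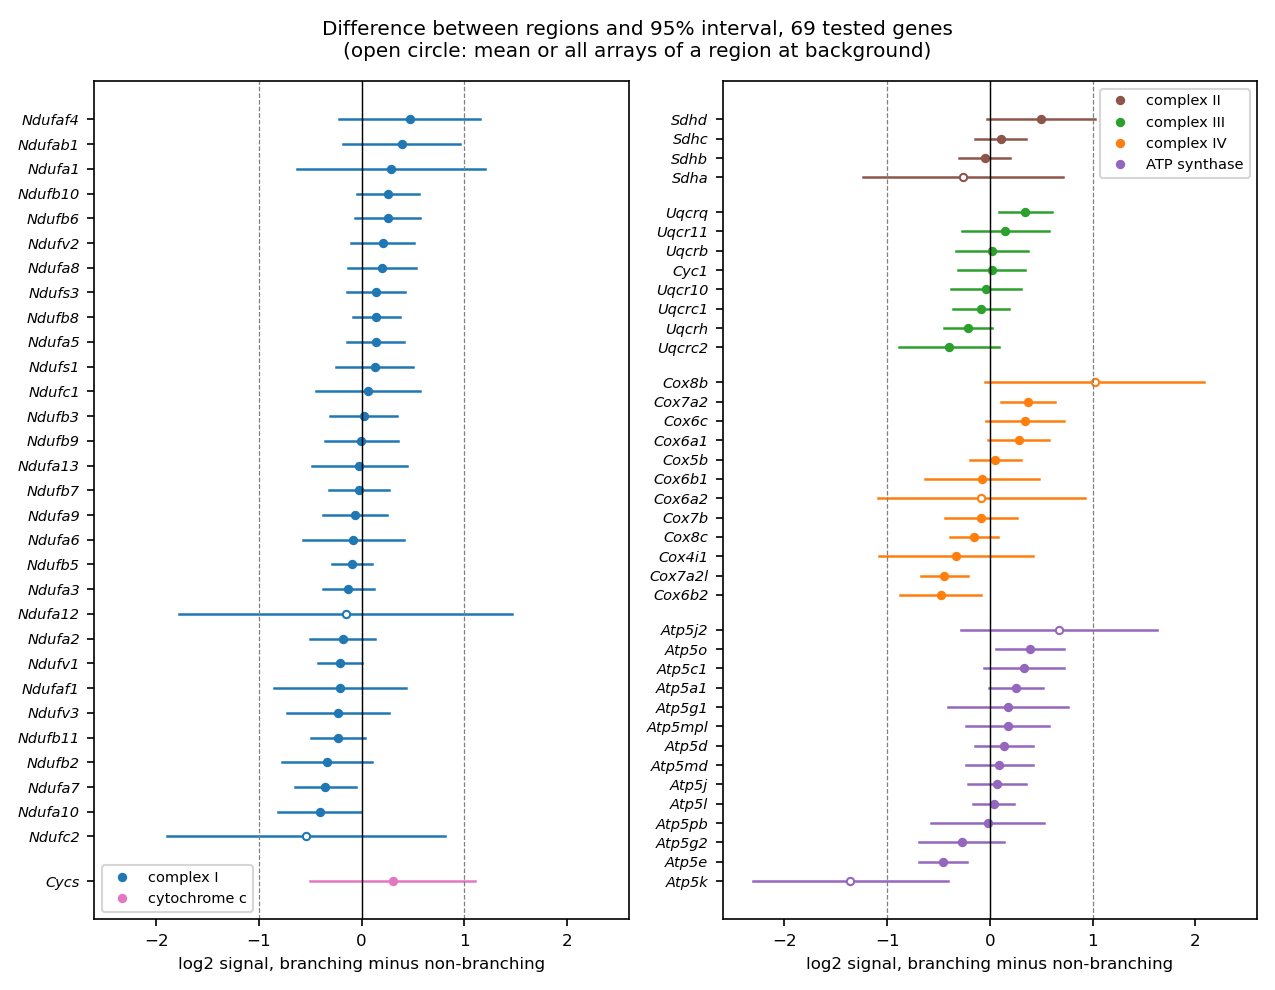
Difference between the regions for the 69 tested genes, by complex. Points are branching minus non-branching log2 signal, lines are 95% intervals of the limma fit, and dashed lines mark 2-fold. Most points lie close to 0, with 57 intervals inside the dashed lines, and open circles mark the 7 genes with the mean or all arrays of a region at or below background, whose differences are drawn but not read.

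Atp5e, the epsilon subunit in the central stalk of ATP synthase, came closest to a call. Its intensity was 2457, 2209.6 and 2372 on the 3 branching arrays, against 3082, 3057 and 3523 on the 3 non-branching arrays. All branching arrays lay below all non-branching arrays, with means of 2346 ± 126 and 3220.4 ± 262 (SD, n = 3 each). The log2 difference was -0.46 with an SE of 0.10, a 95% interval of -0.69 to -0.22 and an adjusted p of 0.0631 (limma). The probe set of Atp5e is of a less specific design.

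Cox7a2l, the supercomplex factor, followed it. It read 1752, 1631 and 1598 on the branching arrays, against 2242, 2344 and 2195 on the non-branching arrays. The regions did not overlap, with means of 1660.4 ± 80.8 in the branching region and 2260.4 ± 76.2 in the non-branching region (SD, n = 3 each). The log2 difference was -0.45 with an SE of 0.10, a 95% interval of -0.68 to -0.22 and an adjusted p of 0.0647 (limma). Both genes depended on the settings. After quantile normalization Atp5e was called at an adjusted p of 0.0414 (limma), where 2.17% of all probe sets tested were called. When the dimmer 50% were dropped, Atp5e had an adjusted p of 0.0479 and Cox7a2l of 0.0499 (limma), where 4.11% were called. Some other settings moved both further from a call. The adjusted p was 0.125 for Atp5e and 0.147 for Cox7a2l with a replicate block, 0.128 and 0.108 after median centring, and 0.320 and 0.294 without a variance trend. With 1 array left out it ran between 0.0822 and 0.233 for Atp5e and between 0.0789 and 0.222 for Cox7a2l.

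The promoters of these 2 genes are printed first here, because they came closest to a call. Those of Cycs and Uqcrc1 follow, as examples of the NRF1 motif, the one found in most member promoters of the 3 searched. Each sequence runs 5′ to 3′ on the strand of the gene, from 250 bases before to 50 bases after the start given by RefSeq (GRCm38.p6). Capitals mark the motif CGCANGCGC of NRF1 on either strand. The windows are chr2:174464052-174464351 on the minus strand for Atp5e, chr17:83514284-83514583 on the minus strand for Cox7a2l, chr6:50566520-50566819 on the minus strand for Cycs and chr9:108936398-108936697 on the plus strand for Uqcrc1.
Atp5e: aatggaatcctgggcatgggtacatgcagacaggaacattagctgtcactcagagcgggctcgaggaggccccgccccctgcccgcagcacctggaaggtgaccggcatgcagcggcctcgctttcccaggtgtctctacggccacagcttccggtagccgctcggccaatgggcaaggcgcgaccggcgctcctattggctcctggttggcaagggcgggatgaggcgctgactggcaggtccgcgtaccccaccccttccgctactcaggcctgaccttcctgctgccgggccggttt
Cox7a2l: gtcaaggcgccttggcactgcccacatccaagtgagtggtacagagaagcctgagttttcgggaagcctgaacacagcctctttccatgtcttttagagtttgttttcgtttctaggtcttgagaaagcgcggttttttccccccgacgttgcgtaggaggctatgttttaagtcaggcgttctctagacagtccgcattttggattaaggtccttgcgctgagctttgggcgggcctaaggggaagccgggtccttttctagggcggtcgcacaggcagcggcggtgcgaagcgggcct
Cycs: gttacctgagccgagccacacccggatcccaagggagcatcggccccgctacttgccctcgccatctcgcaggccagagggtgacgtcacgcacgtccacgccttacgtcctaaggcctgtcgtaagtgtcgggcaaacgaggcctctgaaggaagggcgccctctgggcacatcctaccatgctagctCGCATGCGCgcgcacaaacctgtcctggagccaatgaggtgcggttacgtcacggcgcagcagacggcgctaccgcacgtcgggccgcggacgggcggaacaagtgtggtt
Uqcrc1: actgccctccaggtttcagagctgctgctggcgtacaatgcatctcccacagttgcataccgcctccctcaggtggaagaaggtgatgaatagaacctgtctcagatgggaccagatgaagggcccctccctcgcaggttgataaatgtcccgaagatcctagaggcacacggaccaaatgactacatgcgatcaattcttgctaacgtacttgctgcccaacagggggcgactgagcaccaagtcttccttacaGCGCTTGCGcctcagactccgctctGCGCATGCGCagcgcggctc

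The RefSeq table held 64 promoters of 59 of the 73 genes, and 3 motifs were searched on both strands. The NRF1 motif CGCANGCGC was in 21 of the 64 promoters (32.8%), against 6.31% of all 32851 promoters in the table and 11.2% of the 8409 promoters of genes on the array. The YY1 motif AAGATGGC was in 8 (12.5%), against 2.75% of all promoters and 3.73% of those of genes on the array. The GABP motif CCGGAAGT was in 4 (6.25%), against 3.89% and 6.68%. At least 1 of the 3 motifs was in 32 of the 64 member promoters (50%), against 11.9% of all promoters and 19.5% of those of genes on the array. The median G and C content was 58.8% in member promoters, near the 59.7% of genes on the array and above the 52.7% of all promoters. Other features of base composition, such as the number of CG pairs, were not compared. No motif overlapped a different one in a member promoter. The NRF1 motif is nearly its own reverse complement, so 1 stretch can match on both strands, as in Uqcrc1, where 2 of 3 matches overlap. Neither Atp5e nor Cox7a2l held any of the 3 motifs in this window. A match describes the letters and is not a site, and no match says only that these letters are not in this window.

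In complex I, 30 of 31 genes were tested and the median log2 difference was -0.02, with 26 of 30 intervals within 2-fold. The 4 tested genes of the catalytic core (Ndufs1, Ndufs3, Ndufv1 and Ndufv2), encoded in the nucleus, had differences between -0.21 and 0.20. The 24 tested accessory subunits had a median of -0.04. Ndufv1, which binds NADH and flavin, read 6836, 6807 and 6343 on the branching arrays, against 6903, 7784 and 8469 on the non-branching arrays. The branching arrays lay below the non-branching arrays by a narrow gap, and the difference was -0.21 with an SE of 0.10 (adjusted p = 0.364, limma).

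Ndufa10, an accessory subunit, had the lowest difference among complex I genes above background on all arrays. Its intensities were 493.7, 497.6 and 406.8 on the branching arrays, against 611.4, 646.9 and 590.8 on the non-branching arrays. The regions did not overlap, and the difference was -0.41 with an SE of 0.18 (adjusted p = 0.336, limma). Ndufb11, another accessory subunit, was also lower without overlap, at 1120.5, 1120.2 and 1033 on the branching arrays against 1263, 1264 and 1308 on the non-branching arrays, a difference of -0.23 (adjusted p = 0.421, limma). Ndufb10 went the other way, with 1101, 1065 and 1126 on the branching arrays against 1002, 932.0 and 827.9 on the non-branching arrays, a difference of 0.26 (adjusted p = 0.426, limma). Its sign depended on the probe sets used: with the mean of its probe sets, the second of which was too dim to be tested, the difference was -0.36. Ndufv1, Ndufb10 and Ndufb11 are named because the count of genes without overlap is given, and they were chosen after their values were seen.

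The largest positive differences in complex I were those of Ndufaf4, the assembly factor, and of Ndufab1, the mitochondrial acyl carrier protein. Ndufaf4 read 250.2, 216.9 and 279.7 on the branching arrays, against 160.8, 218.0 and 163.5 on the non-branching arrays, a difference of 0.47 with an SE of 0.31 (adjusted p = 0.543, limma). Ndufab1 read 1345, 1621 and 890.6 on the branching arrays, against 1242, 716.0 and 970.1 on the non-branching arrays, a difference of 0.39 with an SE of 0.25 (adjusted p = 0.543, limma). In both genes the regions overlapped.

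Ndufc2 lay below background on all 6 arrays, between 49.8 and 140.1, so no difference is given for it. Ndufs4, an accessory subunit, was too dim to be tested and exceeded background on 1 non-branching array only, at 169.3. Ndufa12 was at or below background on all 3 branching arrays and above it on 1 non-branching array, at 179.3. The remaining complex I genes that were tested had differences between -0.35 (Ndufa7) and 0.29 (Ndufa1).

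Ndufb2, an accessory subunit, turned on 1 array. It read 6680 on branching replicate 1 but 3887 and 3875 on the other branching arrays, against 5293, 6231 and 6116 on the non-branching arrays. With all arrays the difference was -0.33 (adjusted p = 0.479, limma), and without branching replicate 1 it was -0.60 and was called (adjusted p = 0.0343, limma), where 1.61% of all probe sets tested were called. That probe set is of a less specific design, and another tested probe set of Ndufb2 had a difference of 0.06.

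Complex II, which also belongs to the citric acid cycle, had 4 genes and a median difference of 0.03. Sdha, the flavoprotein that oxidises succinate, was near background, at 79.3, 139.8 and 144.3 on the branching arrays against 111.6, 155.8 and 160.1 on the non-branching arrays, and no difference is given for it. Sdhb, the iron-sulfur subunit, read 2598, 2933 and 2634 on the branching arrays, against 2535, 2862 and 3079.8 on the non-branching arrays, a difference of -0.05 with a 95% interval of -0.30 to 0.19 (adjusted p = 0.880, limma). The membrane anchors differed in spread. Sdhc read 2888, 3162 and 3243 on the branching arrays, against 3267, 2678 and 2730.3 on the non-branching arrays, a difference of 0.10 with an interval of -0.15 to 0.35. Sdhd read 3708, 2124 and 3258 on the branching arrays, against 2798, 1926 and 1679 on the non-branching arrays. Its regions overlapped, and the difference of 0.50 had an interval of -0.02 to 1.03 (adjusted p = 0.368, limma).

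All 8 genes of complex III were tested, all lay above background on all 6 arrays, and all 8 intervals lay within 2-fold, with a median difference of -0.01. Uqcrq, a small subunit next to cytochrome b, read 5482, 4268 and 4294 on the branching arrays, against 3655, 3486 and 3849 on the non-branching arrays. All branching arrays were higher, and the difference was 0.34 with an SE of 0.12 and an interval of 0.08 to 0.61 (adjusted p = 0.202, limma). Uqcrh, the hinge protein that touches cytochrome c1, read 2344, 2679.5 and 2683 on the branching arrays, against 2793, 2965 and 3178 on the non-branching arrays. All branching arrays were lower here, and the difference was -0.21 with an SE of 0.10 (adjusted p = 0.386, limma). Among the core proteins, Uqcrc2 had a difference of -0.40 (adjusted p = 0.449, limma) and Uqcrc1 of -0.09 (adjusted p = 0.80, limma). The small subunits Uqcr11, Uqcrb and Uqcr10 had differences of 0.15, 0.02 and -0.03.

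Cyc1, the cytochrome c1 that hands electrons to cytochrome c, was high on branching replicate 1, on a probe set of a less specific design. Its intensity was 12444, 8606 and 8303 on the branching arrays, against 9119, 9409 and 9977 on the non-branching arrays, a difference of 0.02 with an interval of -0.31 to 0.34 (adjusted p = 0.974, limma). The difference was -0.17 without branching replicate 1. The second probe set of Cyc1, of a plain design, read 8217, 9089.8 and 9007.5 on the branching arrays, against 8011, 7052 and 6889 on the non-branching arrays, with no overlap, a difference of 0.26 and an adjusted p of 0.217 (limma). Cycs, the mobile carrier cytochrome c, read 279.5, 181.5 and 192.9 on the branching arrays, against 156.2, 236.0 and 141.3 on the non-branching arrays. Its regions overlapped, the difference was 0.30 with an SE of 0.36, and the interval of -0.50 to 1.11 left a change of 2-fold inside it (adjusted p = 0.765, limma).

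The signal of each gene relative to its own mean over the 6 arrays shows how complexes varied between arrays. For all 69 genes the median of this deviation was 0.08, -0.04 and 0.004 on the branching arrays and 0.02, -0.002 and -0.02 on the non-branching arrays, on the log2 scale. For complex III it was 0.25 on branching replicate 1 but -0.12 and -0.09 on the other branching arrays, against -0.08, 0.04 and -0.02 on the non-branching arrays. Branching replicate 1 stood further from the other branching arrays than these stood from the non-branching arrays. For ATP synthase it was 0.14, 0.05 and -0.03 on the branching arrays, against 0.05, -0.14 and -0.08 on the non-branching arrays, and the ranges of the regions overlapped.

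**Figure D2:**
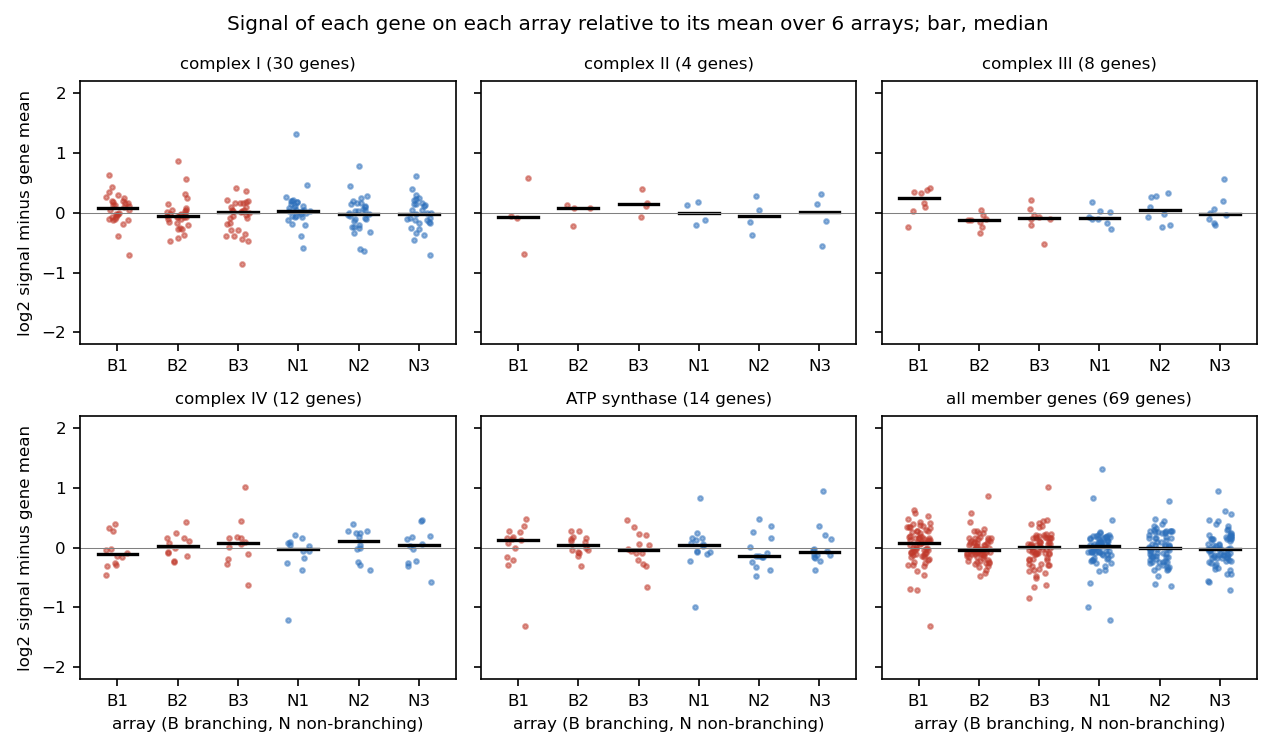
Log2 signal of each tested gene on each array minus its mean over the 6 arrays, by complex. B1 to B3 are the branching arrays, N1 to N3 the non-branching arrays, points are genes and bars are medians. For all 69 genes the medians stay between -0.04 and 0.08, and the median of complex III stands at 0.25 on branching replicate 1.

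In complex IV, 12 of 15 genes were tested, with a median difference of -0.08 and 9 of 12 intervals within 2-fold. Several of its subunits exist as forms used in different tissues. Cox7a2, the form of subunit VIIa found in most tissues, read 6216, 4670.1 and 5289 on the branching arrays, against 4508, 4009 and 3930.1 on the non-branching arrays. All branching arrays were higher, and the difference was 0.37 with an SE of 0.12 and an interval of 0.10 to 0.64 (adjusted p = 0.178, limma). Cox7a1, the form of heart and skeletal muscle, was at 8.0 to 25.7 on all 6 arrays, below background.

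Cox6a1, the form of subunit VIa found in most tissues, read 8725, 6651 and 7812 on the branching arrays, against 7423, 5680.4 and 6007.5 on the non-branching arrays, a difference of 0.28 (adjusted p = 0.371, limma). Cox6a2, its heart and muscle form, was below background on all 6 arrays, at 84.2 to 115.0. Cox6b1 read 268.5, 411.1 and 416.7 on the branching arrays, against 388.7, 362.0 and 384.3 on the non-branching arrays, a difference of -0.08 (adjusted p = 0.930, limma). The gene annotated as Cox6b2, a form known from testis, read 490.5, 516.3 and 529.6 on the branching arrays, against 614.5, 719.9 and 824.6 on the non-branching arrays. These did not overlap, and the difference was -0.48 with an SE of 0.18 (adjusted p = 0.243, limma), from a probe set of a less specific design.

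Of the forms of subunit VIII, Cox8a, the one found in most tissues, was below background on all 6 arrays, at 18.2 to 109.3. Cox8b, known from heart and muscle, read 179.6, 174.8 and 297.9 on the branching arrays, against 64, 175.9 and 99.8 on the non-branching arrays. It was above background on 3 branching arrays and 1 non-branching array, and the regions overlapped (adjusted p = 0.366, limma). No difference is given because its non-branching mean of 113.2 lies below background. That probe set is of a less specific design, and the plain probe set of Cox8b was below background on all 6 arrays, at 20.6 to 102.5. Cox8c, known from testis, read 1599, 1535 and 1512 on the branching arrays, against 1687, 1688 and 1798 on the non-branching arrays, with no overlap, a difference of -0.15 and an adjusted p of 0.563 (limma).

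Cox5a, a subunit on the matrix side, was too dim to be tested, at 35.2, 39.2 and 33.9 on the branching arrays against 150.1, 132.5 and 44.2 on the non-branching arrays. Cox5b, also on the matrix side, read 2395, 2989 and 2796 on the branching arrays, against 2560.2, 2662 and 2632 on the non-branching arrays, a difference of 0.05 with an interval of -0.19 to 0.30. Cox6c, a small membrane subunit, read 3275, 3512.5 and 4503 on the branching arrays, against 3721, 2564 and 2664 on the non-branching arrays, a difference of 0.34 (adjusted p = 0.390, limma). Cox4i1, the common form of subunit IV, read 327.6, 543.2 and 260.1 on the branching arrays, against 311.8, 531.7 and 553.2 on the non-branching arrays, a difference of -0.33 with a wide interval of -1.08 to 0.42. Its other probe set had a difference above 0, with a non-branching mean below background. Cox7b, a small subunit, had a difference of -0.09.

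**Figure D3:**
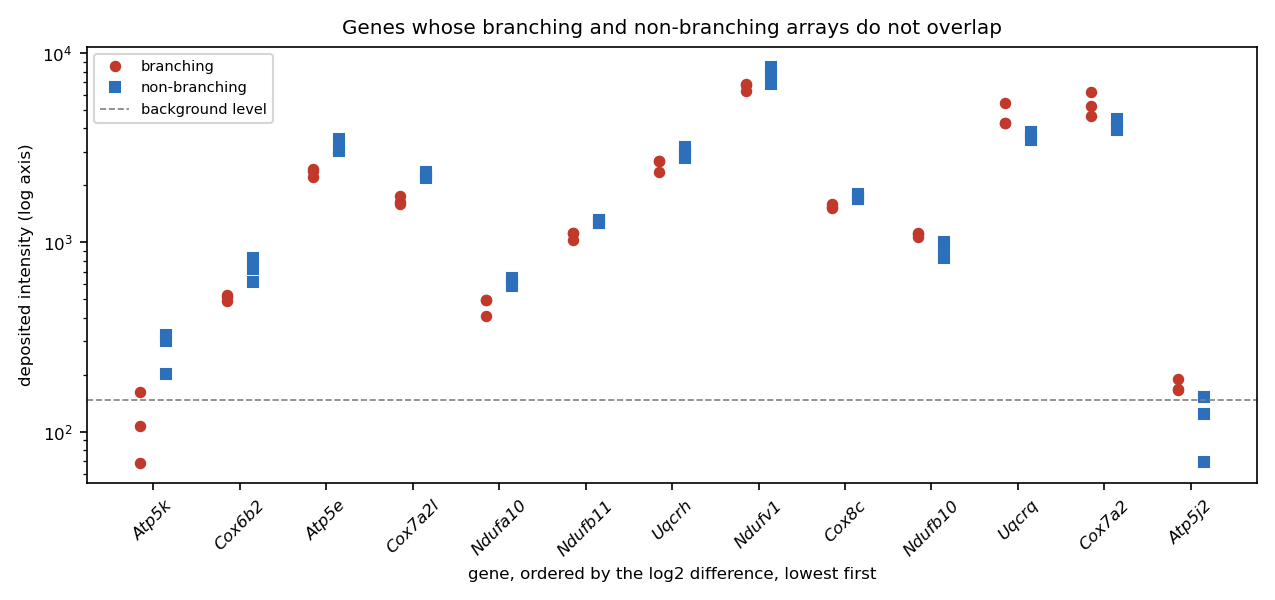
Deposited intensity, on a log axis, of the 13 tested genes whose branching arrays (circles) and non-branching arrays (squares) do not overlap. The dashed line is the background level of 147. Of these genes, 9 are lower and 4 higher in the branching region, none was called, and Atp5k and Atp5j2 lie around the background level.

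All 14 genes of ATP synthase were tested, with a median difference of 0.12 and 12 of 14 intervals within 2-fold. Of the 4 genes of the catalytic head and central stalk, Atp5a1 (0.25), Atp5c1 (0.33) and Atp5d (0.14) had positive log2 differences on the probe sets that stand for them. Atp5e was the one below 0, but the sign of Atp5d depended on the probe set. The value of Atp5c1, the gamma subunit, came from a probe set of a less specific design, and its plain probe set, also tested, had a difference of 0.05. Atp5d, the delta subunit of the central stalk, had 5 probe sets. The one with the highest mean signal, of a less specific design, read 1190.5, 1207 and 1055 on the branching arrays, against 1045, 1028 and 1056 on the non-branching arrays. The other 4 tested all had differences below 0, 1 of them with both means below background. Another of these 4, also less specific and above background on all 6 arrays, was lower without overlap, at -0.56 (adjusted p = 0.275, limma). With the mean of its probe sets, Atp5d had a difference of -0.20.

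In the peripheral stalk, Atp5o, the oligomycin sensitivity conferring protein, read 3244, 2852 and 2625.5 on the branching arrays, against 2643, 1822 and 2239 on the non-branching arrays. The lowest branching array lay just below the highest non-branching array, and the difference was 0.39 with an SE of 0.15 and an interval of 0.06 to 0.72 (adjusted p = 0.263, limma). Atp5j and Atp5pb, the other stalk members, had differences of 0.07 and -0.02. For the membrane ring that turns as protons pass, Atp5g1 had a difference of 0.18 (adjusted p = 0.818, limma) and Atp5g2 of -0.28 (adjusted p = 0.550, limma), both for subunit c. The value of Atp5g2 came from a probe set of a less specific design. Its plain probe set read 177.8, 38.0 and 26.7 on the branching arrays, against 167.2, 147.0 and 206.4 on the non-branching arrays. The branching mean of that set, 80.8, lies below background, so no difference is given for it.

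Among the small membrane subunits, Atp5k, subunit e, which helps ATP synthase to form dimers, read 68.0, 161.0 and 106.8 on the branching arrays, against 300.7, 202.4 and 324.0 on the non-branching arrays. It was above background on 1 branching array and on 3 non-branching arrays with no overlap (adjusted p = 0.162, limma), and no fold is given because its branching mean of 111.9 lies below background. Atp5j2, subunit f, was higher without overlap, at 165.6, 168.2 and 189.8 on the branching arrays against 69.4, 123.7 and 152.4 on the non-branching arrays (adjusted p = 0.529, limma), with 1 non-branching array above background. Atp5l, subunit g, read 7681, 6540.0 and 6841 on the branching arrays, against 6689.7, 6947 and 6851 on the non-branching arrays, a difference of 0.04 with an interval of -0.16 to 0.24. Atp5md and Atp5mpl, further small subunits of the membrane part, had differences of 0.09 and 0.17.

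Of the 73 genes, 21 had several probe sets. For 12 of these genes 2 or more probe sets were tested, and in 4 genes, Atp5d, Cox4i1, Ndufa3 and Ndufb2, their differences did not all have the same sign. The differences of the 2 tested probe sets of Ndufa3, an accessory subunit of complex I, were -0.13 and 0.59. Both are of a less specific design. The second was dim, above background on 4 arrays, and its interval ran from -0.95 to 2.13.

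Further lists cover genes that build or feed the chain. They are short, so at the 2.03% of all probe sets tested that were called, a count of 0 or 1 in a list is no result about it. Assembly factors outside the rule had 0 of 14 tested genes called and a median log2 difference of 0.06, against -0.0046 over all probe sets tested. The smallest p was that of Foxred1, a complex I assembly factor, at 1292, 1241 and 1318 on the branching arrays against 1069, 988.2 and 1097 on the non-branching arrays, a difference of 0.29 (adjusted p = 0.309, limma). Next came Lrpprc, which stabilises mitochondrial messenger RNAs, with a difference of 0.24 (adjusted p = 0.593, limma). Among genes of mitochondrial biogenesis and mitochondrial DNA, 0 of 11 were called, with a median of -0.10. Polg, the mitochondrial DNA polymerase, was below background on all branching arrays, and Tfb2m, a mitochondrial transcription factor, read 248.9, 94.1 and 245.4 on the branching arrays against 124.6, 143.0 and 28.1 on the non-branching arrays (adjusted p = 0.493, limma).

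For pyruvate entry and the citric acid cycle, 0 of 21 tested genes were called and the median was 0.08. Cs, citrate synthase, read 2134.5, 2265 and 2345 on the branching arrays, against 1858.5, 1717 and 1736 on the non-branching arrays. All branching arrays were higher, with a difference of 0.34 and an SE of 0.10 (adjusted p = 0.145, limma). Pcx, pyruvate carboxylase, read 361.0, 275.7 and 318.0 on the branching arrays, against 70.4, 192.4 and 140.9 on the non-branching arrays, also without overlap (adjusted p = 0.155, limma). Its probe set is of a less specific design, and no difference is given because the non-branching mean of 134.6 lies below background. Carriers, porins and other electron donors had 0 of 18 called and a median of 0.06, and the smallest p values were those of Sod2, the mitochondrial superoxide dismutase (adjusted p = 0.428, limma), and Slc25a5, an ADP and ATP carrier (adjusted p = 0.490, limma).

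Glycolysis gave 1 call among 16 tested genes, with a median of 0.04. Hk2, the hexokinase that can dock on the outer mitochondrial membrane, rose in the branching region. It read 1223, 1113 and 1184 on the branching arrays, against 631.2, 485.7 and 534.2 on the non-branching arrays. The regions did not overlap, and the log2 difference was 1.10 with an SE of 0.16 and an adjusted p of 0.00851 (limma).

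**Figure D4:**
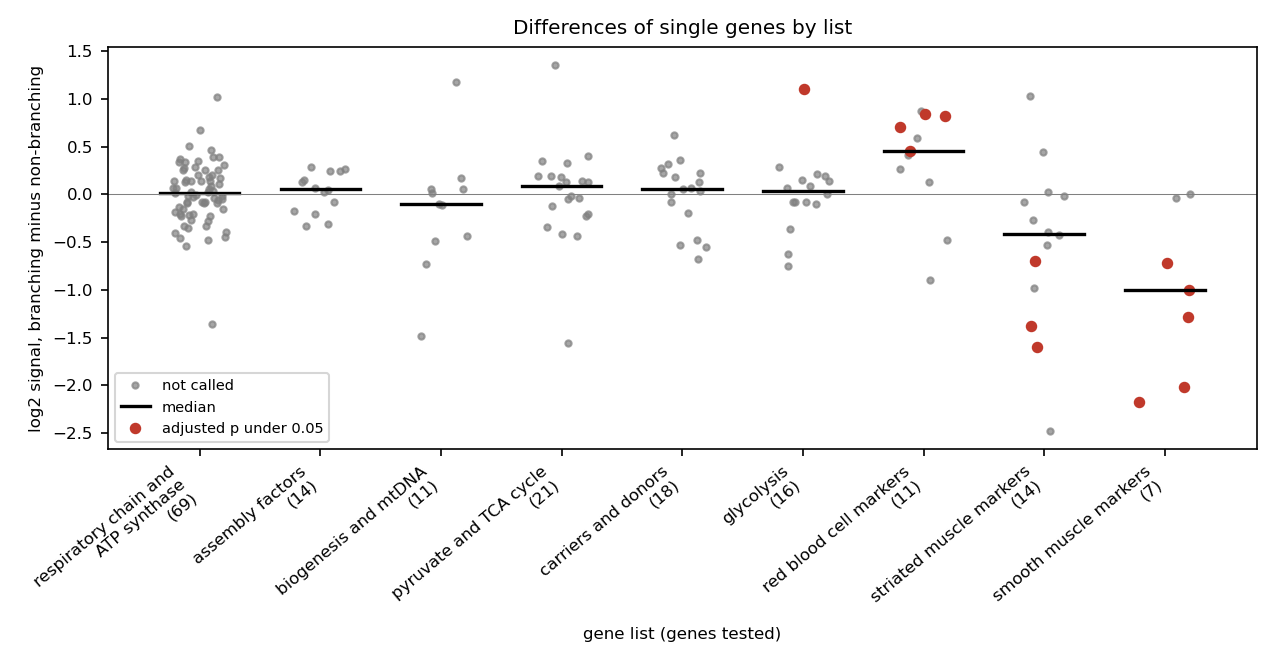
Branching minus non-branching log2 difference of each tested gene, by gene list, with the number tested in parentheses. Red points are genes called at an adjusted p under 0.05 and bars are medians. The respiratory chain list has no red point, while Hk2 among the glycolysis genes and several red blood cell and muscle markers do.

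Markers of other cells were also compared between the dissected regions, beside the 2.03% of all probe sets tested that were called. Of the red blood cell markers 4 of 11 tested were called, all of them globins and all higher in the branching region. The summed intensity of the 11 was 139795 to 154610 on branching arrays and 90246 to 97922 on non-branching arrays. The globins Hbb-y, Hba-x and Hba-a1 held most of it, with branching means of 63392, 44661 and 31071. Hbb-bh1, another globin tested, was not called, and its regions overlapped, with a difference of 0.12 (adjusted p = 0.864, limma). Outside the globins no marker was called, and differences ran from -0.90 (Epor) to 0.88 (Slc4a1). Striated muscle markers had 3 of 14 called, all lower in the branching region, with sums of 4175 to 4447 on branching arrays and 6425 to 7283 on non-branching arrays, and 8 of the 21 on the array were above background on no array. Smooth muscle markers had 5 of 7 called, all lower, with sums of 4919 to 5271 on branching arrays and 9928 to 11292 on non-branching arrays. Neuronal markers had 1 of 5 tested called, lower in the branching region, though the median difference over the 5 was 0.16. Of the 10 neuronal markers on the array, 6 were above background on no array. Endothelial markers had 1 of 8 called, also lower, with a median of -0.44. Lung epithelium markers had 0 of 9 called. As for the lists above, a count of 0 or 1 in a short list is no result about it. Lung mesenchyme markers had 2 higher and 1 lower of 5. Of the heart and muscle forms, Cox6a2 and Cox7a1 were below background on all arrays of both regions, while Cox8b was above it on 3 branching arrays and 1 non-branching array. What part these cells have in the members' values was not tested. Array medians ran between 212 and 229 after the deposited scaling, the control probe sets had a median of 78.8 on non-branching replicate 2 and of 19.8 to 40.7 on the others. Precision is limited by the small number of arrays.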

How the data were processed

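Total RNA from 3 branching and 3 non-branching samples was measured on 1 array each. The deposited file holds linear intensity per probe set. The steps by which the authors made it are not given in the labels or the file. With 2% of values trimmed at either end, every array averaged 500.3, so the arrays had been scaled before deposit. Of 12488 probe sets, 66 controls were removed. A floor of 16 was applied and the deposited values were put on a log2 scale, which understates differences of dim genes. After the dimmest 25% were dropped, 9316 remained. The regions were compared by limma (version 3.58.1, R 4.3.3; lmFit, eBayes with a variance trend, two-sided), with Benjamini-Hochberg adjustment over all 9316 and a call at an adjusted p under 0.05. A gene was represented by its probe set with the highest mean log2 signal. This can be of a less specific design, as for Sdhb, Uqcrb, Uqcrc2, Cyc1, Cox6a1, Cox6b1, Cox6c, Atp5d and Atp5g2, among others. The background level is the 95th percentile of 114 values of 19 control probe sets. Where a gene's mean or all its arrays in a region were at or below it, the text gives no difference for that gene, though the fit, the medians, the sign counts and the plot of differences include it. The fit was tested on simulated data. No column was left without a sample.

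Genes were named by rule: any called member, the 2 highest and 2 lowest differences in each complex, tissue isoforms, complex II, Cycs, Cyc1, members whose probe sets differ in sign, and in each pathway list the called genes (up to 4) or the 2 with the smallest p. The members, lists and rules were chosen with earlier results of these data known. Other settings were a replicate block, 2 normalizations, 2 filters, a floor of 64, adding 16, no variance trend, the mean over probe sets, an adjusted p under 0.10 and leaving out each array.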

Additional observations from a re-analysis of the deposited data

How the results depend on the processing

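Of 16 alternative settings, 12 called 0 member genes and 4 called 1 or 2. Quantile normalization called 1 (Atp5e), leaving out the dimmer 50% of probe sets called 2, and an adjusted p under 0.10 called 2 (both times Atp5e and Cox7a2l). Leaving out 1 array gave 0 to 1, the 1 being Ndufb2 without branching replicate 1. Over all probe sets tested, 189 were called, against 114 with the replicate number as a block, 100 with no filter, 22 with no variance trend, 359 at an adjusted p under 0.10 and 61 to 150 with 1 array left out. Same-numbered arrays did not deviate together (correlations of -0.002, 0.01 and -0.01, and 0 of 6 arrays best correlated with its own number). They were therefore not paired in the main fit. The labels do not say whether equal numbers mark a shared dissection, and correlations from so few arrays cannot settle it. The block called 0 member genes. Genes without overlap, 13 with all arrays, counted 18 to 28 with 1 array left out (25.4% to 40.6%, against 28.5% to 33.3% of all probe sets tested), the 28 being without non-branching replicate 1. The complex I median ran between -0.12 and 0.0075 with 1 array left out, -0.12 being without branching replicate 1. Signs turned for Cyc1 after quantile normalization (-0.011) and with the mean of a gene's probe sets for Atp5d (-0.20), Cox4i1 (0.24), Ndufa3 (0.23) and Ndufb10 (-0.36). With 1 array left out, ranges crossed 0 for Cyc1 (-0.17 to 0.12), Cox6b1 (-0.19 to 0.13), Cox5b (-0.016 to 0.14) and Sdhb (-0.13 to 0.013). None of these 8 genes was called in any of these settings, and the cause was not tested. The low signal of genes near background limits their precision.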

Other observations

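Several probe sets of complex IV read against the textbook tissue of the gene they are annotated to. Cox8a, the form of subunit VIII found in most tissues, and Cox5a, which every complex IV holds, were below or near background, at 18.2 to 109.3 and at 33.9 to 150.1. Cox8c and Cox6b2, known from testis, were well above it, at 1512 to 1798 and at 490.5 to 824.6, on the probe sets that stand for them here. A second probe set of Cox8c read 7.6 to 20.7, and 2 others of Cox6b2 read 55.0 to 153.2 and 28.9 to 198.6, each above background on 1 array. These values were noticed after they were seen, and what the probes of these sets bind was not tested.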
